A study of Mus musculus with 12 samples.

Results

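The 32 genes of glucose uptake, glycolysis and lactate handling were followed in purified mouse muscle progenitors of 4 origins. They were chosen by symbol from the deposited FPKM table (FPKM being fragments scaled to transcript length and to library size) and are 32 of its 23284 gene symbols. All 32 were found, 31 under the listed symbol and Pkm under its synonym Pkm2, and all 32 passed the filter of at least 1 FPKM in at least 3 libraries. The transplant group held cells recovered from the tibialis anterior muscle of mice 1 month after it had received teratoma-derived progenitors. The teratoma group held progenitors isolated from 3-week-old teratomas, which are tumours that pluripotent stem cells form in a host. The adult group came from whole hindlimbs of 8-week-old males, and the embryo group from whole E14.5 embryos. Each group had 3 libraries, all labelled as strain 129P2/OlaHsd, and in every group cells were sorted as CD31-, CD45-, α7-integrin+ and VCAM+. The labels name neither the pluripotent line nor the host, and a host's own progenitors would carry the same sorted antigens.

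Glycolysis splits glucose into pyruvate and yields ATP without oxygen. Pyruvate is then either reduced to lactate and exported, or burned in mitochondria through the pyruvate dehydrogenase complex, which pyruvate dehydrogenase kinases switch off. Most steps are run by families of isozymes. Pgam2, Eno3 and Pfkm are the forms that mature muscle uses for the mutase, enolase and phosphofructokinase steps, while Pgam1, Eno1, Pfkl and Pfkp are the general forms. Adult muscle stem cells at rest are known for low glycolytic activity, and they raise it when they are activated.

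Read depths are not stated, and the low values allow only a relative estimate, which ran from 0.889 in embryo replicate 2 to 1.29 in embryo replicate 1, set against adult replicate 1. Small RNA genes took 40.4% to 98.2% of the FPKM sum of a library, while the sum over the other genes lay between 218165 and 272076. Embryo replicate 2 stood apart from its group, with 74 genes listed at 0 there while both group mates had at least 5 FPKM, against 6 to 27 such genes in the other libraries. The 6 sorted or myogenic marker genes Itga7, Vcam1, Pax7, Myf5, Myod1 and Cdh15 were detected in every group, summing to 340 ± 61.2 FPKM in transplant, 307 ± 50.3 in teratoma, 644 ± 70.4 in adult and 128 ± 8.55 in embryo cells (SD, n = 3 each). In the same group order, Pecam1, the gene of the excluded antigen CD31, averaged 1.96, 7.08, 3.34 and 3.68 FPKM, and Ptprc (CD45) averaged 0.166, 0.906, 0 and 0.0131 FPKM. Myod1, a gene of activated and committed myogenic cells, made up most of the adult sum with 423, 442 and 343 FPKM, against 11.2 to 62.2 FPKM in the other 9 libraries. These are bulk samples, in which a smaller share of cells that express a gene and less RNA per cell cannot be told apart.

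Promoter windows of 250 bases before the start site were searched on both strands for ACGTG, a form of the core letters bound by hypoxia-inducible factor. Other forms of the core were not counted. RefSeq windows were at hand for 30 of the 32 genes, 49 windows in all. ACGTG was found in 18 of these 49 windows (36.7%), against 16.6% of the 32851 windows of all genes. The E-box letters CANNTG were in 67.3% of the members' windows and 66.2% of all windows, and the palindrome CACGTG, which contains both, was in 12.2% and 6.0%. Some genes have several windows, and matches are descriptions of letters, not of bound sites. The windows of 4 genes with at least 2 matches were picked after match counts and levels were seen, and are shown because their levels differ in opposite directions: Hk2 and Slc16a1 were higher in adult than in embryo cells, and Ldha and Pgk1 were lower. They are from RefSeq (GRCm38.p6), 5′ to 3′ on the gene's strand, with capitals marking ACGTG in either orientation, where CACGTG counts as 2 matches. The windows lie at chr6:82774455-82774704 (minus strand) for Hk2, chr3:104638414-104638663 (plus) for Slc16a1, chr7:46845554-46845803 (plus) for Ldha and chrX:106186850-106187099 (plus) for Pgk1.
Hk2: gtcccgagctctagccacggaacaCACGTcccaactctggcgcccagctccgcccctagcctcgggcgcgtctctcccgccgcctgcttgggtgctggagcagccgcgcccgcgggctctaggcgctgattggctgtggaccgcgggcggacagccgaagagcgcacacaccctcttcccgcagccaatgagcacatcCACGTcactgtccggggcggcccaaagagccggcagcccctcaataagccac
Slc16a1: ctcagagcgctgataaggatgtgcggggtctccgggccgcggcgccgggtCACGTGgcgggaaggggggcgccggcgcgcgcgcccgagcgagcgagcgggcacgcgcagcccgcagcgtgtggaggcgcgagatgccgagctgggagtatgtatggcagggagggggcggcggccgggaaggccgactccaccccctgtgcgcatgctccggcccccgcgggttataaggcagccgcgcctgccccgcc
Ldha: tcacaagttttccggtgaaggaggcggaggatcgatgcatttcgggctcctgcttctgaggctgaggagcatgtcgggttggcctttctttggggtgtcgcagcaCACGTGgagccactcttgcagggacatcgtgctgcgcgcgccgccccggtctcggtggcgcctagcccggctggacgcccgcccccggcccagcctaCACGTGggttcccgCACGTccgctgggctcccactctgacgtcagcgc
Pgk1: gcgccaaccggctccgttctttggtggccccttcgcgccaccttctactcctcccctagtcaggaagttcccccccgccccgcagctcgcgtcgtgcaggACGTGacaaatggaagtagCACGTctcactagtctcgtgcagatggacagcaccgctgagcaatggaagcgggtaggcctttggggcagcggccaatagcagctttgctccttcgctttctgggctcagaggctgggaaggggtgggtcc
The Ldha window shown holds 5 matches, including 2 copies of CACGTG, and the Hk2, Slc16a1 and Pgk1 windows hold 2 matches each. Ldha has another window, at chr7:46846832-46847081, with 0 matches, and the one with most matches is shown. Because the 4 genes were picked for levels in opposite directions, their windows cannot show how these letters relate to level.

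As a whole the pathway was well expressed. The median member had 9.43 FPKM in transplant, 13.3 in teratoma, 8.22 in adult and 9.28 in embryo cells, against medians over the 12699 tested genes of 5.12, 6.40, 3.73 and 6.37 FPKM. The 15 enzymes that carry glucose 6-phosphate to pyruvate, summed per library, gave 615, 654 and 627 FPKM in transplant cells, 1108, 1236 and 1048 in teratoma cells, 531, 553 and 508 in adult cells and 1099, 1075 and 1066 in embryo cells. On the deposited scale the transplant sums lay just above the adult ones, and both lay below every teratoma and embryo sum. Median-ratio factors, by which libraries are divided, were 0.817 to 0.824 in adult and 0.941 to 0.978 in transplant libraries. They were 1.1 to 1.3 in teratoma and 1.12 to 1.33 in embryo libraries, so rescaling would narrow these distances. The sums given here were not rescaled. Gapdh alone made up 38.2 ± 2.3% of this sum in transplant, 34.4 ± 1.04% in teratoma, 26.7 ± 1.96% in adult and 30.3 ± 2.35% in embryo cells. Eno1 made up 5.18 ± 0.844%, 6.92 ± 0.358%, 3.24 ± 0.731% and 12.1 ± 2.33% in the same order. By mean level, 1 member was highest in transplant, 14 in teratoma, 4 in adult and 13 in embryo cells. The teratoma count is 43.8% of the members, against 22.2% of all tested genes, and the embryo count is 40.6%, against 39.7%. With libraries rescaled by median ratios, 10 members (31.2%) were highest in teratoma cells, against 13% of all tested genes, and 8 (25.0%) in adult cells, against 31.1%.

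**Figure D1:**
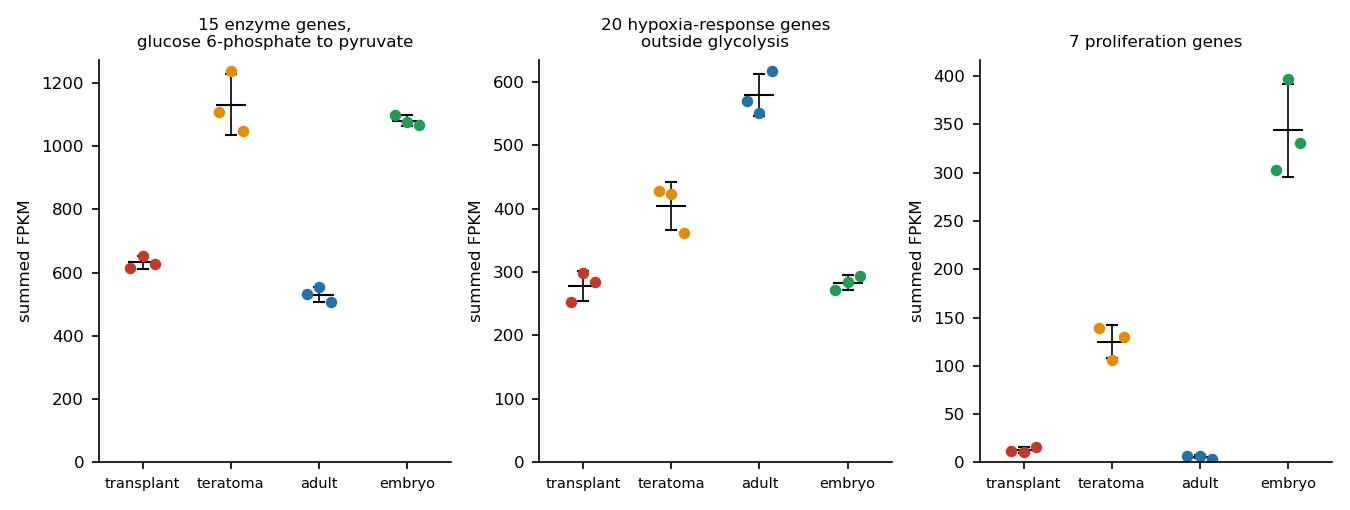
Summed FPKM per library (points) with mean and SD (bars) for the 15 enzyme genes from glucose 6-phosphate to pyruvate, 20 hypoxia-response genes outside glycolysis and 7 proliferation genes. Enzyme sums are high in teratoma and embryo cells, hypoxia-response sums are highest in adult cells (551 to 616) through 1 gene, Ndrg1, without which they are 286 to 310 there and 298 to 360 in teratoma cells, and proliferation sums are highest in embryo cells (303 to 397).

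**Figure D2:**
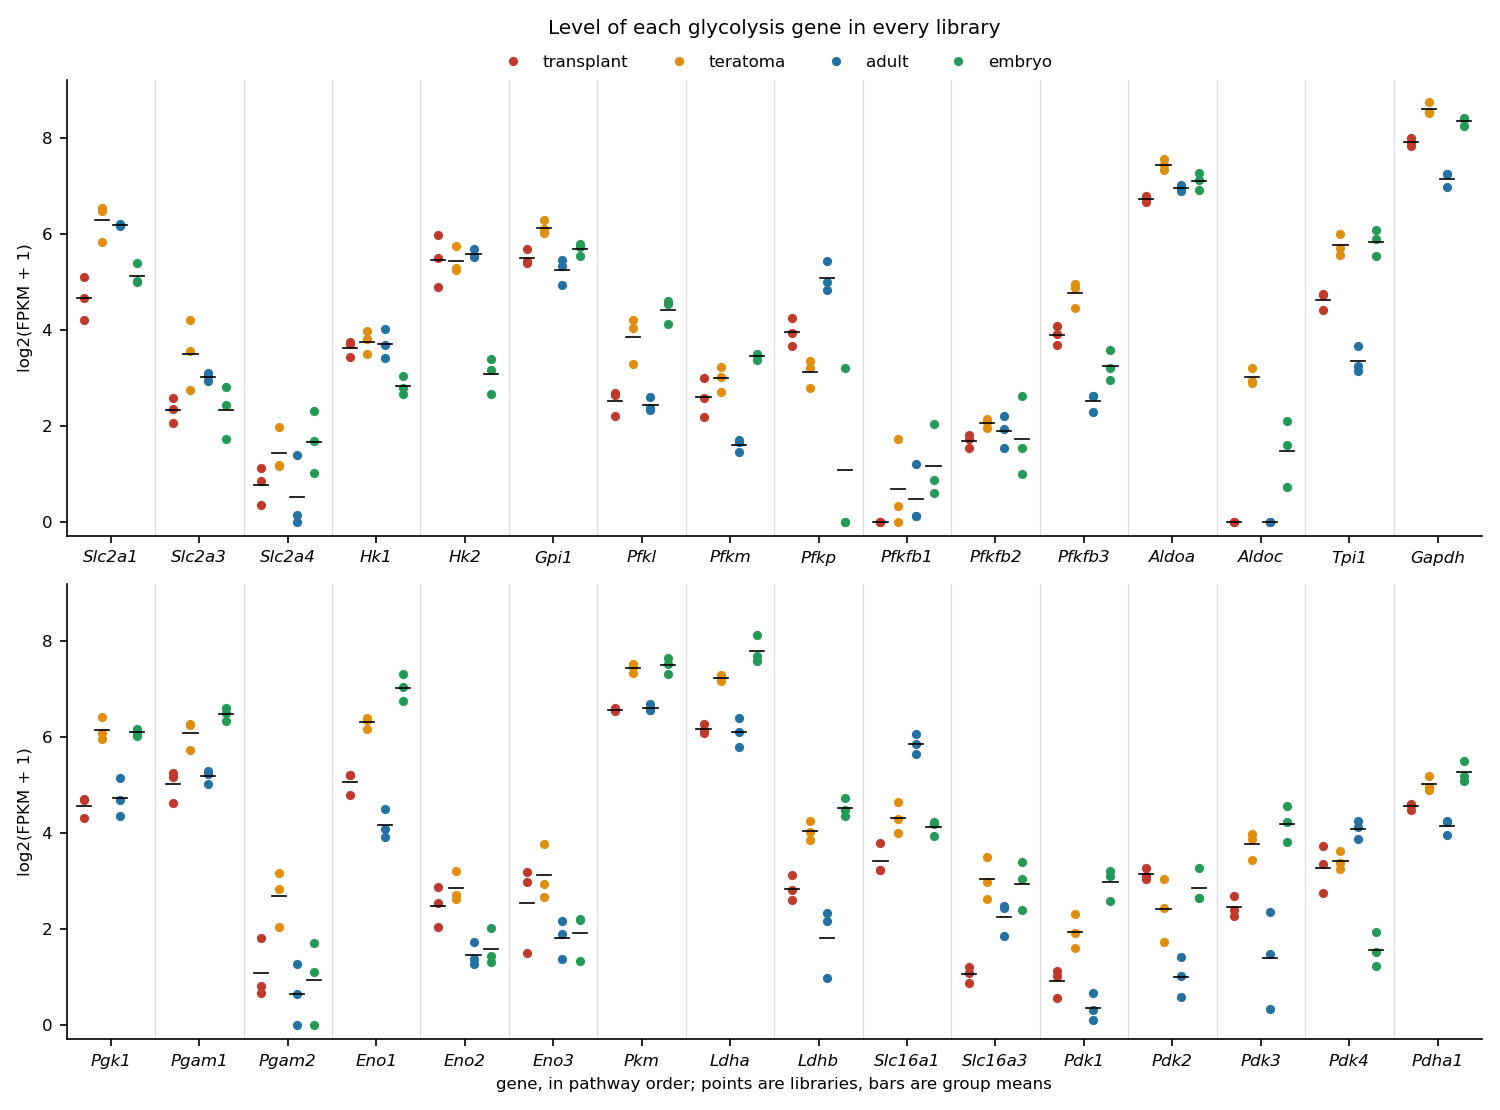
Level of each of the 32 genes in every library on the log2(FPKM + 1) scale; points are libraries, short bars are means of the plotted values, and genes run in pathway order. Hk2 is low in embryo libraries only, whereas Eno1, Tpi1 and Ldha are high in embryo and low in adult libraries.

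Glucose entry was dominated by Slc2a1 (GLUT1), the widely expressed basal transporter, which formed 83.2% to 90.3% of the family's FPKM in group means. It had 17.3, 33.5 and 24.3 FPKM in transplant, 88.5, 92.4 and 56.2 in teratoma, 70.8, 72.9 and 71.3 in adult and 30.7, 31.4 and 40.8 in embryo cells. The teratoma and adult ranges overlapped each other and lay above every transplant and embryo value. Slc2a3 (GLUT3), a high-affinity transporter typical of neurons, averaged 4.06 ± 0.88, 11.3 ± 5.83, 7.13 ± 0.468 and 4.24 ± 1.85 FPKM in transplant, teratoma, adult and embryo cells (SD, n = 3 each). Slc2a4 (GLUT4), the insulin-responsive transporter of mature muscle and fat, was scarce. It had 0.788, 0.276 and 1.16 FPKM in transplant, 1.26, 2.93 and 1.23 in teratoma, 0.0994, 1.62 and 0 in adult, and 2.19, 1.01 and 3.95 in embryo cells.

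Hexokinases trap glucose by phosphorylating it. Hk2, the inducible hexokinase of muscle (chr6:82725025-82774454, minus strand, mm10), had 28.5, 61.5 and 43.9 FPKM in transplant, 36.8, 52.8 and 38.2 in teratoma, 50.5, 44.9 and 45.2 in adult and 7.89, 5.34 and 9.43 in embryo cells. Every embryo library was below every other library, and the other 3 groups overlapped. Hk1, the housekeeping hexokinase, averaged 11.4 ± 1.32, 12.6 ± 2.28, 12.3 ± 2.8 and 6.14 ± 0.99 FPKM in transplant, teratoma, adult and embryo cells. Hk2 formed 78.7 ± 4.72%, 77.0 ± 2.65% and 79.4 ± 2.8% of the pair in transplant, teratoma and adult cells and 54.7 ± 3.88% in embryo cells. Such shares within 1 library do not depend on how libraries are scaled. An exact permutation test over the 4 groups, two-sided by construction and adjusted over 9 families, gave p = 0.0302 for the Hk2 share (n = 3 per group). Between any pair of groups, 3 libraries against 3 cannot give an exact p below 0.1.

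Phosphofructokinase, the committed step, changed its isozyme with origin. Pfkl, the liver form, formed 62.1 ± 12.1% of the family in embryo cells and 47.7 ± 4.16% in teratoma cells, but 19.7 ± 5.19% in transplant and 11.4 ± 3.08% in adult cells. Pfkp, the platelet form, had 11.7, 17.9 and 14.3 FPKM in transplant, 9.16, 8.21 and 5.90 in teratoma, 30.7, 27.4 and 42.0 in adult, and 0, 8.20 and 0 in embryo cells. It thus formed 59.6 ± 2.78%, 27.4 ± 1.86%, 83.4 ± 3.39% and 8.1 ± 14% of the family in transplant, teratoma, adult and embryo cells. The embryo value came from replicate 2 alone, the library that stood apart, and an exact 0 in such a table can be a failed estimate. Pfkm, the muscle form, had 3.55, 7.01 and 4.98 FPKM in transplant, 7.12, 8.34 and 5.52 in teratoma, 2.25, 1.73 and 2.15 in adult and 10.1, 9.32 and 10.2 in embryo cells. Every adult library was below every other library, and the Pfkm share of the family was 20.8 ± 3.04%, 24.9 ± 3.26%, 5.2 ± 0.831% and 29.8 ± 2.04% in transplant, teratoma, adult and embryo cells (exact permutation p = 0.00175, adjusted over 9 families, n = 3 per group). The family as a whole varied less, at 24.5 ± 5.09, 28.6 ± 7.35, 39.8 ± 7.48 and 33.1 ± 0.641 FPKM in the same order.

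The bifunctional PFKFB enzymes set fructose 2,6-bisphosphate, the activator of phosphofructokinase. Pfkfb3, the form with the strongest kinase bias, had 14, 15.8 and 11.9 FPKM in transplant, 28.1, 30.1 and 21.0 in teratoma, 3.88, 5.16 and 5.18 in adult and 8.24, 6.75 and 11.0 in embryo cells. Its 4 group ranges did not overlap on the deposited scale, in the order teratoma, transplant, embryo, adult. With libraries rescaled by median ratios, adult against embryo cells did not pass by limma (log2 change -0.27, adjusted p = 0.243). Pfkfb2 averaged 2.23, 3.16, 2.76 and 2.67 FPKM in transplant, teratoma, adult and embryo cells, with overlap in most pairs of groups. Pfkfb1 was listed at 0 in the 3 transplant libraries and did not exceed 3.11 FPKM in any library.

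**Figure D3:**
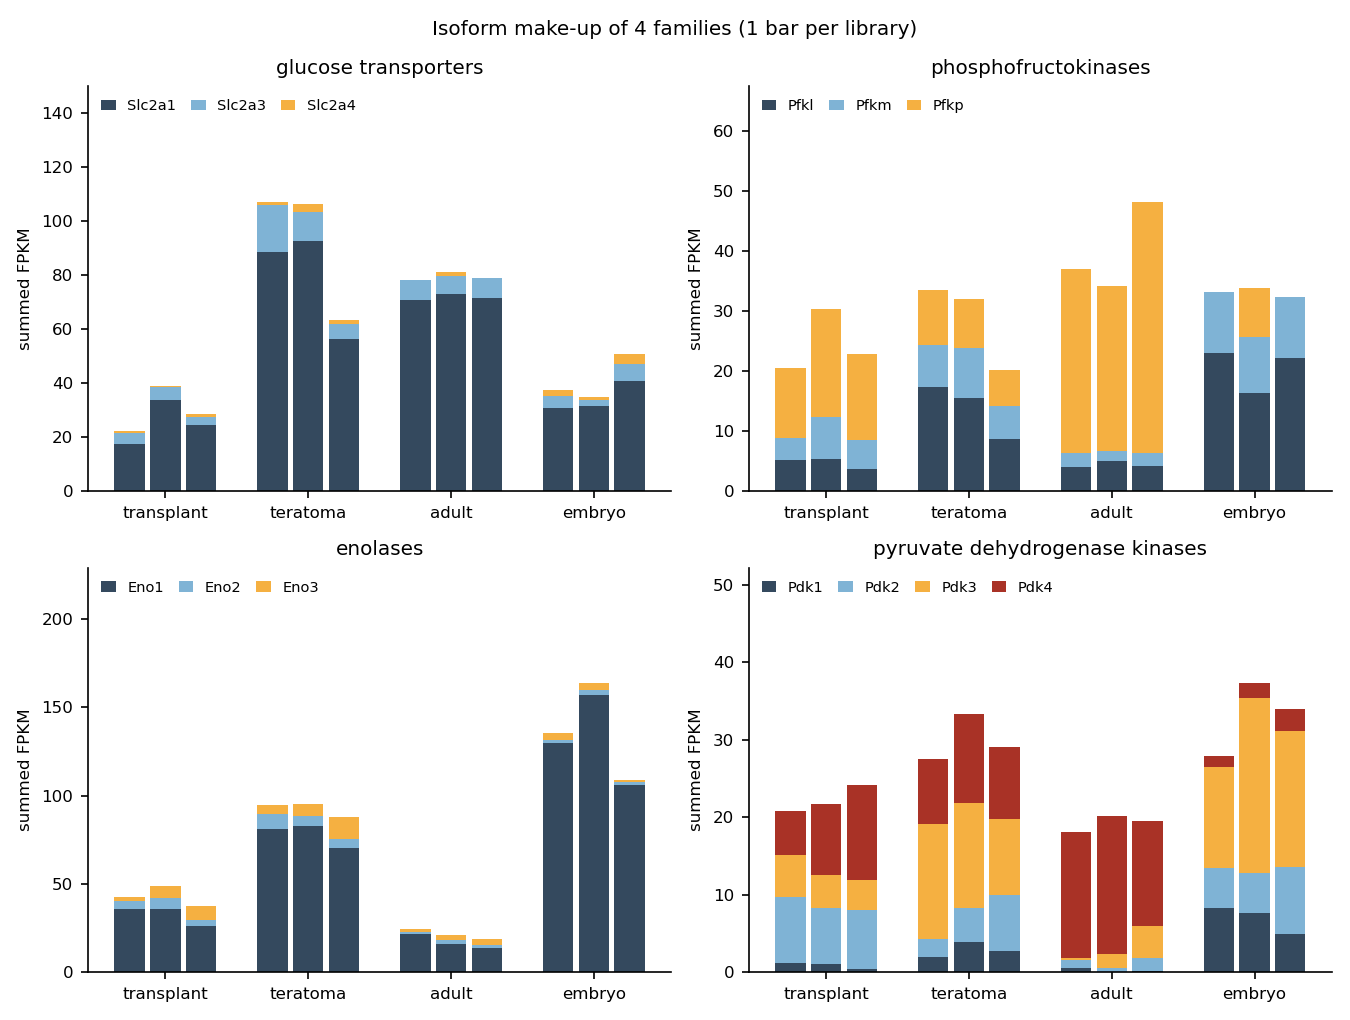
Stacked FPKM of the isoforms of 4 families, 1 bar per library, grouped by origin. Pfkp forms most of the phosphofructokinase bars of adult and transplant cells, Pdk4 most of the pyruvate dehydrogenase kinase bars of adult cells, and Eno1 the bulk of every enolase bar.

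Tpi1, which interconverts the triose phosphates, had 25.7, 25.4 and 20.3 FPKM in transplant, 46.1, 63.1 and 51.4 in teratoma, 7.86, 11.6 and 8.42 in adult and 66.8, 45.3 and 58.5 in embryo cells. Transplant libraries lay between the adult ones and the overlapping teratoma and embryo ones. Gpi1, the isomerase that makes fructose 6-phosphate, stayed within a narrower band, at 44.4 ± 5.19, 69.2 ± 6.67, 37.3 ± 6.94 and 50.6 ± 4.72 FPKM in transplant, teratoma, adult and embryo cells. Aldoa, the muscle aldolase, averaged 105 ± 4.62, 172 ± 13.5, 122 ± 4.97 and 137 ± 16.9 FPKM. Aldoc, the brain aldolase, was listed at 0 in every transplant and adult library, at 8.18, 6.62 and 6.41 FPKM in teratoma cells and at 0.653, 3.27 and 2.02 FPKM in embryo cells. The summed neural markers were also highest in teratoma cells, mostly through 1 gene, Gfap. The 9 neural marker genes summed to 0.639 to 4.64 FPKM in transplant, 32.0 to 64.3 in teratoma, 3.61 to 6.5 in adult and 9.25 ± 4.78 in embryo cells (mean and SD, n = 3). Gfap, the astrocyte filament gene, made up most of the teratoma sum with 47.4, 56.9 and 26.6 FPKM, and it was listed at 0 in the embryo libraries. Of the 5 neural genes tested in teratoma against embryo cells, 1 was called higher and 0 lower, with a median log2 change of -0.35. Of all tested genes, 15.5% were called higher and 10.6% lower there. The part of neural cells in the Aldoc levels was not tested.

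In the later steps of the pathway, Gapdh, which makes the NADH of glycolysis, had 227, 240 and 256 FPKM in transplant, 368, 430 and 369 in teratoma, 150, 151 and 124 in adult and 303, 336 and 341 in embryo cells. The 4 ranges did not overlap on the deposited scale, although Gapdh is often taken as a constant reference. With libraries rescaled by median ratios, transplant and embryo cells did not differ by limma in Gapdh (log2 change -0.11, adjusted p = 0.557). Pgk1, the first ATP-yielding kinase, averaged 22.9 ± 3.53, 70.8 ± 12.6, 26.2 ± 7.65 and 67.8 ± 3.46 FPKM in transplant, teratoma, adult and embryo cells. Pkm, the pyruvate kinase of muscle and proliferating cells, averaged 93.7 ± 2.29, 173 ± 11.3, 96.4 ± 4.99 and 180 ± 19.9 FPKM. Both kinases thus formed a low pair of groups, transplant and adult, and a high pair, teratoma and embryo, with no overlap between the pairs. The table gives 1 value for Pkm, so its spliced forms were not analysed here.

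The muscle mutase Pgam2 and the muscle enolase Eno3 were minor in all 4 groups. Pgam2 had 0.570, 2.50 and 0.741 FPKM in transplant, 3.11, 7.98 and 6.09 in teratoma, 0, 1.39 and 0.569 in adult and 2.27, 0 and 1.13 in embryo cells. Its general partner Pgam1 averaged 31.8 ± 7.18, 68.0 ± 13.7, 35.3 ± 3.52 and 88.5 ± 8.66 FPKM. Pgam2 therefore formed 3.66 ± 2.42%, 7.95 ± 3.48%, 1.77 ± 1.76% and 1.29 ± 1.23% of the pair in transplant, teratoma, adult and embryo cells (exact permutation p = 0.0421, adjusted over 9 families, n = 3 per group). That call is weak: leaving out any 1 library other than transplant replicate 2 or teratoma replicate 1 took the adjusted exact p to between 0.0548 and 0.116. Eno3 had 1.81, 6.83 and 8.04 FPKM in transplant, 5.32, 6.60 and 12.7 in teratoma, 1.60, 2.72 and 3.48 in adult and 3.58, 3.57 and 1.52 in embryo cells. Eno1, the general enolase, had 35.9, 35.9 and 26.5 FPKM in transplant, 81.2, 83.0 and 70.3 in teratoma, 21.7, 15.9 and 14 in adult and 130, 157 and 106 in embryo cells, and its 4 ranges did not overlap. Eno3 formed 13.2 ± 8.56%, 8.98 ± 4.73%, 12.6 ± 5.87% and 2.07 ± 0.636% of the enolases in transplant, teratoma, adult and embryo cells, and the groups did not pass the test (exact permutation p = 0.139, adjusted over 9 families, n = 3 per group). Eno2, the neuronal enolase, averaged 4.74 ± 1.59, 6.29 ± 1.65, 1.76 ± 0.468 and 2.07 ± 0.844 FPKM in the same order. Markers of differentiating and mature fibres also differed by origin. The 13 fibre genes summed to 121, 120 and 141 FPKM in transplant, 86.5, 181 and 140 in teratoma, 26.7, 26.3 and 14.9 in adult and 27.4, 41.8 and 16.3 in embryo cells. These sums overlapped between transplant and teratoma cells, and between adult and embryo cells. The part of fibre markers in Pgam2, Eno3 and Pfkm was not tested.

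**Figure D4:**
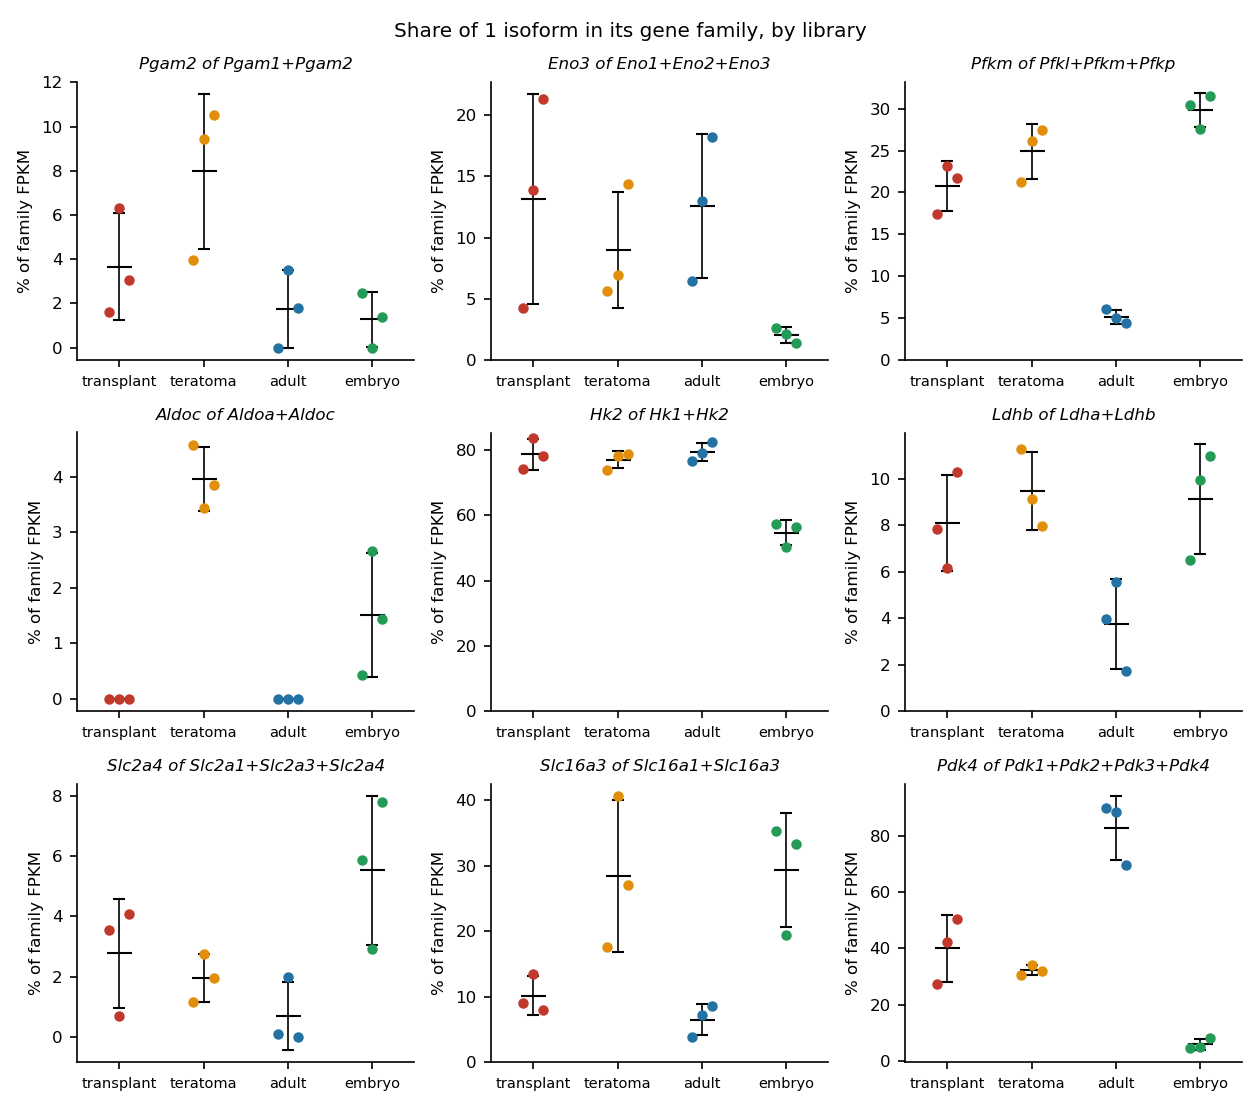
Share of 1 isoform in the summed FPKM of its family, by library (points), with group mean and SD (bars). The Pfkm share is 4.45% to 6.1% in adult libraries and at least 17.4% elsewhere, and the Pdk4 share is 69.5% to 89.8% in adult and 4.84% to 8.34% in embryo libraries.

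Lactate dehydrogenase turns pyruvate into lactate. Ldha, the form favoured by glycolytic cells, had 70.1, 76.5 and 67.0 FPKM in transplant, 142, 151 and 156 in teratoma, 83.5, 67.8 and 54.2 in adult and 278, 192 and 205 in embryo cells. Transplant and adult libraries overlapped, and both lay below the teratoma libraries, which lay below the embryo libraries. Ldhb, the heart form, averaged 6.24 ± 1.36, 15.6 ± 2.3, 2.8 ± 1.62 and 21.9 ± 3.04 FPKM in transplant, teratoma, adult and embryo cells. The Ldhb share of the pair was 8.12 ± 2.09%, 9.47 ± 1.68%, 3.76 ± 1.92% and 9.13 ± 2.34%. This passed the exact permutation test (adjusted p = 0.0439, n = 3 per group), but leaving out any 1 library other than transplant replicates 2 and 3 and embryo replicate 1 took the adjusted exact p to between 0.0546 and 0.154.

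Lactate transport set the adult cells apart. Slc16a1 (MCT1), which carries lactate and pyruvate in either direction, had 8.38, 8.31 and 12.8 FPKM in transplant, 24, 15 and 18.5 in teratoma, 65.6, 56.4 and 48.8 in adult and 17.3, 17.6 and 14.4 in embryo cells. Every adult library exceeded every other library, and on the deposited scale every transplant library was below every other. With libraries rescaled by median ratios, Slc16a1 in transplant against embryo cells did not pass by limma (log2 change -0.41, adjusted p = 0.163). Slc16a3 (MCT4), the exporter typical of glycolytic cells, had 0.840, 1.29 and 1.11 FPKM in transplant, 5.11, 10.3 and 6.87 in teratoma, 2.62, 4.40 and 4.56 in adult and 9.44, 4.24 and 7.17 in embryo cells. Slc16a3 formed 10.2 ± 2.89%, 28.4 ± 11.6%, 6.54 ± 2.43% and 29.3 ± 8.65% of the pair in transplant, teratoma, adult and embryo cells (exact permutation p = 0.0413, adjusted over 9 families, n = 3 per group). Leaving out transplant replicate 1 or 3, teratoma replicate 3, any adult replicate, or embryo replicate 1 or 3 took that adjusted exact p to between 0.0517 and 0.0736. The Slc2a4 share of the glucose transporters behaved alike, with an adjusted exact p of 0.0473 (n = 3 per group) that lay between 0.0566 and 0.146 without any 1 library other than transplant replicate 2 and embryo replicate 2. The chaperone Bsg (basigin), which takes both lactate carriers to the membrane, averaged 97.0 ± 6.8, 141 ± 28.5, 55.2 ± 10.1 and 111 ± 12.9 FPKM in transplant, teratoma, adult and embryo cells.

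The make-up of the pyruvate dehydrogenase kinases differed by origin. Pdk4, the form induced by fasting and fat use (chr6:5483351-5496309, minus strand, mm10), had 5.70, 9.18 and 12.2 FPKM in transplant, 8.44, 11.4 and 9.35 in teratoma, 16.3, 17.9 and 13.6 in adult and 1.35, 1.87 and 2.84 in embryo cells. Adult libraries were above, and embryo libraries below, every transplant and teratoma library. Pdk3 averaged 4.49 ± 0.803, 12.7 ± 2.63, 2.04 ± 1.93 and 17.7 ± 4.78 FPKM in transplant, teratoma, adult and embryo cells, and Pdk1, a target of hypoxia-inducible factor, averaged 0.893 ± 0.366, 2.9 ± 0.966, 0.295 ± 0.263 and 6.96 ± 1.76 FPKM. Pdk2, the widely expressed form, had 8.61, 7.25 and 7.62 FPKM in transplant, 2.32, 4.39 and 7.26 in teratoma, 1.01, 0.493 and 1.66 in adult and 5.25, 5.21 and 8.65 in embryo cells. It was the only member with its highest mean in transplant cells. As shares of the 4 kinases, Pdk4 formed 40.1 ± 11.8% in transplant, 32.3 ± 1.78% in teratoma, 82.6 ± 11.4% in adult and 6.06 ± 1.97% in embryo cells (exact permutation p = 0.00175, adjusted over 9 families, n = 3 per group). Pdk3 was the largest part in embryo cells, at 53.0 ± 7.01%, and in teratoma cells, at 42.6 ± 10.2%. Pdha1, the catalytic subunit that these kinases phosphorylate, averaged 22.5 ± 1.09, 31.3 ± 3.45, 16.7 ± 1.94 and 37.7 ± 5.92 FPKM in transplant, teratoma, adult and embryo cells.

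Tests between groups used limma on log2(FPKM + 1), adjusted by Benjamini-Hochberg over the 12699 tested genes, with changes given as log2 ± SE and a call made at an adjusted p under 0.05. The labels speak of biological replicates without saying how they were collected, so the p-values measure the spread between these libraries. Comparisons that have a group in common share its libraries. Calls that did not survive the loss of 1 library are named with the adjusted p without that library.

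Adult against embryo cells sets resident progenitors of grown muscle beside fetal ones. In adult cells most glycolytic enzymes and both lactate dehydrogenases fell, while Hk2, Hk1, Slc2a1, Slc16a1, Pfkp and Pdk4 rose. Of the 32 genes, 6 were called higher and 18 lower, against 15.8% and 36.9% of all tested genes, with a median change of -0.81 for the members and -0.42 for all genes. Eno1 fell by 2.86 ± 0.20 (adjusted p = 3.83e-07), Ldhb by 2.69 ± 0.31 (adjusted p = 2e-05), Pdk3 by 2.81 ± 0.41 (adjusted p = 0.000117) and Pdk1 by 2.61 ± 0.29 (adjusted p = 1.35e-05). Hk2 rose by 2.51 ± 0.27 (adjusted p = 9.76e-06), and so did Pdk4, by 2.51 ± 0.27 (adjusted p = 1.1e-05). The Pfkp change of 4.01 ± 0.66 (adjusted p = 0.000282) rests on 2 embryo libraries listed at 0. Of the muscle isoforms, Pfkm fell by 1.84 ± 0.24 (adjusted p = 4.5e-05), as did the general Pfkl, by 1.99 ± 0.26 (adjusted p = 4.57e-05), and Pgam1, by 1.30 ± 0.20 (adjusted p = 0.000176). Pgam2 and Eno3 did not pass, at -0.30 ± 0.50 and -0.09 ± 0.46, and both turn positive under another scaling. Among the other called genes, picked after their values were seen, Tpi1 fell by 2.49 ± 0.20 (adjusted p = 1.12e-06), Ldha by 1.70 ± 0.18 (adjusted p = 9.8e-06) and Gapdh by 1.20 ± 0.14 (adjusted p = 1.77e-05), while Slc16a1 rose by 1.73 ± 0.21 (adjusted p = 3.29e-05).

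Median-ratio scaling moved the median of all genes to -0.04 in the adult against embryo comparison and left 8 members higher and 15 lower, with a member median of -0.41. On that scale 49.8% of all calls were higher, against 30.0% on the deposited scale. Of the 24 calls, 21 held under every alternative processing in which the gene was tested. Counts of calls that held are meant in this way in all comparisons, because some alternatives drop genes of low level. The exceptions were Slc2a4, lost without adult replicate 1 or 3 or embryo replicate 1 or 3 (adjusted p = 0.084 to 0.156), Gpi1, lost without adult replicate 1 or 2 or embryo replicate 2 or 3 (adjusted p = 0.0581 to 0.177), and Pfkfb3, lost without adult replicate 1 (adjusted p = 0.0522) or embryo replicate 3 (adjusted p = 0.0518). Without embryo replicate 2 the counts were again 6 higher and 18 lower. Proliferation, erythroid, fibroblast, and epithelial and endodermal markers moved with this contrast. The 7 proliferation genes, all called lower in adult cells, summed to 3.98 to 7.14 FPKM in adult and 303 to 397 FPKM in embryo cells, and the 7 erythroid genes to 2.03 to 5.88 FPKM in adult and 160 to 1920 FPKM in embryo cells. Fibroblast markers summed to 1119 to 1673 FPKM in adult and 2314 to 3363 FPKM in embryo cells. In the same order, epithelial and endodermal markers summed to 0.634 to 1.99 and 4.02 to 18.4 FPKM. The part of these marker sets in the members' changes was not tested.

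Teratoma against embryo cells asks how far progenitors grown in a teratoma resemble fetal ones. In teratoma cells the hexokinases, Slc2a1, Pfkfb3, Pdk4, Aldoc and Eno2 rose, and most of the enzyme chain did not pass the test. The counts were 10 higher and 3 lower of 32, against 15.5% and 10.6% of all tested genes, with medians of 0.14 and 0.01. Hk2 rose by 2.36 ± 0.27 (adjusted p = 6.93e-05), Pdk4 by 1.85 ± 0.27 (adjusted p = 0.000438), Pfkfb3 by 1.51 ± 0.22 (adjusted p = 0.00039) and Aldoc by 1.53 ± 0.31 (adjusted p = 0.00328). Slc2a1 rose by 1.16 ± 0.24 (adjusted p = 0.00405), Hk1 by 0.93 ± 0.21 (adjusted p = 0.00681) and Eno2 by 1.26 ± 0.29 (adjusted p = 0.00777). Pgam2 rose by 1.74 ± 0.50 (adjusted p = 0.0223), a call lost without teratoma replicate 2 or 3 or embryo replicate 2 (adjusted p = 0.065 to 0.09). Eno3 and Pfkm did not pass, at 1.21 ± 0.46 and -0.46 ± 0.24, nor did Pfkl, at -0.57 ± 0.26, or Pgam1, at -0.39 ± 0.20.

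The Pfkp call in teratoma against embryo cells, 2.04 ± 0.66 (adjusted p = 0.0378), was lost without any 1 library of the pair other than embryo replicate 2 (adjusted p = 0.0638 to 0.132). Slc2a3 was called higher but lost without teratoma replicate 1 or 2 or embryo replicate 1 or 2 (adjusted p = 0.0532 to 0.109). Eno1, which fell by 0.72 ± 0.20 (adjusted p = 0.0192), was lost without teratoma replicate 3 (adjusted p = 0.0675) or embryo replicate 2 (adjusted p = 0.0686). Ldha was lost without any teratoma replicate or embryo replicate 1 (adjusted p = 0.0682 to 0.124), and Pdk1 without teratoma replicate 1 or 3 or embryo replicate 1 or 2 (adjusted p = 0.0544 to 0.0738). The lower count was 1 without teratoma replicate 1, embryo replicate 1 or embryo replicate 2, and 0 without teratoma replicate 3. Of the 13 calls, 7 held under every alternative. Several marker sets moved with this contrast. Epithelial and endodermal markers summed to 181 to 467 FPKM in teratoma and 4.02 to 18.4 FPKM in embryo cells. Ttr among them had 91.0 to 216 FPKM in teratoma cells and was listed at 0 in all other libraries. In the same order, proliferation markers summed to 106 to 139 and 303 to 397 FPKM, and fibre markers to 86.5 to 181 and 16.3 to 41.8 FPKM. Leukocyte markers summed to 56 to 152 and 3.93 to 29.1 FPKM, and erythroid markers to 6.26 to 42.1 and 160 to 1920 FPKM. Their part was not tested.

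Teratoma against adult cells sets tumour-grown progenitors beside resident ones. In teratoma cells nearly the whole chain from Gpi1 to Ldha rose on the deposited scale, and Slc16a1 fell. With median-ratio scaling 5 of these calls were lost, those of Gpi1 (adjusted p = 0.099), Aldoa (adjusted p = 0.811), Pgam1 (adjusted p = 0.132), Eno3 (adjusted p = 0.156) and Pkm (adjusted p = 0.0665). The counts were 21 higher and 2 lower of 32, against 36.4% and 8.94% of all tested genes, with medians of 1.03 and 0.50. Tpi1 rose by 2.41 ± 0.20 (adjusted p = 4.7e-06), Pfkfb3 by 2.25 ± 0.22 (adjusted p = 1.34e-05), Eno1 by 2.14 ± 0.20 (adjusted p = 1.05e-05), Ldhb by 2.23 ± 0.31 (adjusted p = 0.000172) and Pdk3 by 2.38 ± 0.41 (adjusted p = 0.00067). Aldoc was called higher and is listed at 0 in the adult libraries, so no fold is given. Pfkm rose by 1.38 ± 0.24 (adjusted p = 0.000647), Pgam2 by 2.04 ± 0.50 (adjusted p = 0.00561), Pfkl by 1.41 ± 0.26 (adjusted p = 0.000942) and Pgam1 by 0.91 ± 0.20 (adjusted p = 0.00307). Slc16a1 fell by 1.54 ± 0.21 (adjusted p = 0.000162). Hk2, Hk1 and Slc2a1 did not pass on the deposited scale, at -0.15 ± 0.27, 0.05 ± 0.21 and 0.11 ± 0.24, while with median-ratio scaling Hk2 was called lower, at -0.68 (adjusted p = 0.0479).

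Median-ratio scaling left 16 members higher and 4 lower in teratoma against adult cells, with medians of 0.66 for the members and 0.12 for all genes, and 53.0% of all calls were higher on that scale, against 80.3% as deposited. Of the 23 calls, 14 held under every alternative. Eno3 was called higher, by 1.31 ± 0.46 (adjusted p = 0.0343), and lost without teratoma replicate 2 or 3 or adult replicate 1 or 2 (adjusted p = 0.0577 to 0.132). Pfkp was called lower, by 1.97 ± 0.66 (adjusted p = 0.0283), and lost without teratoma replicate 2 or 3 or adult replicate 1 or 3 (adjusted p = 0.0584 to 0.0832), which left 1 lower call. Proliferation markers summed to 106 to 139 FPKM in teratoma and 3.98 to 7.14 FPKM in adult cells, leukocyte markers to 56 to 152 and 8.95 to 20.6 FPKM, and endothelial markers to 36.9 to 48.0 and 13.4 to 22.4 FPKM. Epithelial and endodermal markers summed to 181 to 467 FPKM in teratoma and 0.634 to 1.99 FPKM in adult cells. In the same order, neural markers summed to 32.0 to 64.3 and 3.61 to 6.5 FPKM, and fibre markers to 86.5 to 181 and 14.9 to 26.7 FPKM. Fibroblast markers summed to 2873 to 4758 FPKM in teratoma and 1119 to 1673 FPKM in adult cells. Their part was not tested.

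Transplant against teratoma cells sets the progenitors recovered from muscle beside the kind of cell that had been transplanted. In transplant cells Slc2a1, Slc2a3, most enzymes and both lactate carriers fell, and the hexokinases, Pdk4, Pdk2 and Eno3 did not pass. By limma, 0 members were called higher and 20 lower, against 4.18% and 18.5% of all tested genes, with medians of -0.87 and -0.28. At an unadjusted p under 0.05 the counts were 0 and 21. Slc16a3 fell by 1.98 ± 0.31 (adjusted p = 0.0011), Slc2a1 by 1.63 ± 0.24 (adjusted p = 0.000728), Pgk1 by 1.58 ± 0.21 (adjusted p = 0.000367) and Pfkl by 1.33 ± 0.26 (adjusted p = 0.00342). Aldoc was called lower and is listed at 0 in the transplant libraries. Eno1 fell by 1.24 ± 0.20 (adjusted p = 0.00119), Pgam1 by 1.08 ± 0.20 (adjusted p = 0.00279), Tpi1 by 1.13 ± 0.20 (adjusted p = 0.0021), Ldha by 1.06 ± 0.18 (adjusted p = 0.00165) and Pkm by 0.88 ± 0.13 (adjusted p = 0.00067). Pfkm, Pfkp and Eno3 did not pass, at -0.39 ± 0.24, 0.84 ± 0.66 and -0.58 ± 0.46. Hk2 stood at 0.02 ± 0.27 (adjusted p = 0.972).

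Median-ratio scaling left 10 members lower and 0 higher in transplant against teratoma cells, with medians of -0.58 and -0.03, and 43.4% of all calls were higher on that scale, against 18.5% as deposited. The 10 calls that held under every alternative in which the gene was tested were Aldoc, Slc16a3, Slc2a1, Pgk1, Pfkl, Pgam1, Eno1, Tpi1, Pkm and Ldha. Aldoc and Slc16a3 were tested in 15 alternatives and the others in 16. Gapdh and Aldoa were lost under median-ratio scaling alone (adjusted p = 0.0944 and 0.0712). Calls lost without 1 library were Pgam2, -1.59 ± 0.50 (adjusted p = 0.038), without transplant replicate 1 or 3 or teratoma replicate 2 or 3 (adjusted p = 0.0894 to 0.127), Slc2a3 without the transplant replicates 1 or 3 or teratoma replicates 1 or 2 (adjusted p = 0.0824 to 0.141), and Gpi1 without transplant replicate 1 or 3 or teratoma replicate 2 (adjusted p = 0.0619 to 0.069). Pfkfb3 was lost without transplant replicate 3 or teratoma replicate 1 or 2 (adjusted p = 0.0538 to 0.0566), Ldhb without transplant replicate 1 or 2 or teratoma replicate 1 (adjusted p = 0.0532 to 0.072) and Slc16a1 without teratoma replicate 1 (adjusted p = 0.053). Pdk1 was lost without transplant replicate 3 or teratoma replicate 2 or 3 (adjusted p = 0.0517 to 0.0907), and Pdk3 without any library of the pair other than teratoma replicate 3 (adjusted p = 0.0683 to 0.126). Without teratoma replicate 3, 1 member was called higher. Proliferation markers summed to 10.9 to 15.9 FPKM in transplant and 106 to 139 FPKM in teratoma cells. In the same order, epithelial and endodermal markers summed to 0.0963 to 0.435 and 181 to 467 FPKM, and fibroblast markers to 5259 to 8201 and 2873 to 4758 FPKM. Endothelial markers summed to 5.05 to 7.33 and 36.9 to 48.0 FPKM, and neural markers to 0.639 to 4.64 and 32.0 to 64.3 FPKM. Leukocyte markers summed to 13.5 to 25.4 and 56 to 152 FPKM. Their part was not tested.

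Transplant against adult cells asks how near recovered cells are to resident ones. In transplant cells Slc16a1, Slc2a1 and Slc16a3 were lower and Pdk2, Pfkfb3, Tpi1, Gapdh and Eno1 were higher. Of the 32 genes, 8 were called higher and 4 lower, against 27.3% and 16.9% of all tested genes, with medians of 0.08 and 0.23. Slc16a1 fell by 2.43 ± 0.21 (adjusted p = 8.58e-06) and Slc2a1 by 1.53 ± 0.24 (adjusted p = 0.000368), and Slc16a3 by 1.20 ± 0.31 (adjusted p = 0.00823). Pdk2 rose by 2.14 ± 0.34 (adjusted p = 0.000374), Pfkfb3 by 1.38 ± 0.22 (adjusted p = 0.000359), Tpi1 by 1.28 ± 0.20 (adjusted p = 0.000353), Eno1 by 0.90 ± 0.20 (adjusted p = 0.00325) and Gapdh by 0.77 ± 0.14 (adjusted p = 0.00086). Pfkm rose by 0.99 ± 0.24 (adjusted p = 0.00531), a call lost under quantile normalization (adjusted p = 0.0867), while Pfkl, Pgam1, Pgam2, Eno3 and Pfkp did not pass, at 0.08 ± 0.26, -0.16 ± 0.20, 0.45 ± 0.50, 0.73 ± 0.46 and -1.13 ± 0.66. The sign for Pfkl turns under other scalings. Ldhb was lost without transplant replicate 3 (adjusted p = 0.0682) or adult replicate 3 (adjusted p = 0.0561), and Eno2 without transplant replicate 2 (adjusted p = 0.0581). Pdk4, which fell by 0.80 ± 0.27 (adjusted p = 0.0298), was lost without transplant replicate 1 or 2 or adult replicate 1 or 2 (adjusted p = 0.055 to 0.132). Of the 12 calls, 8 held under every alternative, and median-ratio scaling gave 8 higher and 6 lower. Fibroblast markers summed to 5259 to 8201 FPKM in transplant and 1119 to 1673 FPKM in adult cells. In the same order, fibre markers summed to 120 to 141 and 14.9 to 26.7 FPKM, and proliferation markers to 10.9 to 15.9 and 3.98 to 7.14 FPKM. Endothelial markers summed to 5.05 to 7.33 and 13.4 to 22.4 FPKM. Their part was not tested.

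Transplant against embryo cells sets the recovered cells beside fetal ones, with the embryo libraries shared with the other embryo comparisons. In transplant cells Eno1, Pfkl, Pgk1, Pgam1, Pkm, both lactate dehydrogenases, Slc16a3, Pdk1 and Pdk3 fell, and Hk2, Hk1, Pfkp and Pdk4 rose. The counts were 6 higher and 17 lower of 32, against 14.9% and 27.6% of all tested genes, with medians of -0.71 and -0.24. Hk2 rose by 2.38 ± 0.27 (adjusted p = 2.4e-05) and Pdk4 by 1.71 ± 0.27 (adjusted p = 0.000326), and the Pfkp change of 2.88 ± 0.66 (adjusted p = 0.00385) again rests on embryo libraries listed at 0. Eno1 fell by 1.96 ± 0.20 (adjusted p = 1.14e-05), Pdk1 by 2.07 ± 0.29 (adjusted p = 0.00013), Pfkl by 1.91 ± 0.26 (adjusted p = 9.95e-05), Slc16a3 by 1.88 ± 0.31 (adjusted p = 0.000469) and Pgam1 by 1.47 ± 0.20 (adjusted p = 0.00011). Pfkm fell by 0.85 ± 0.24 (adjusted p = 0.0121), a call lost without transplant replicate 1 (adjusted p = 0.0565), and Pgam2 and Eno3 did not pass, at 0.15 ± 0.50 and 0.64 ± 0.46.

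Of the 23 calls in transplant against embryo cells, 17 held under every alternative. Pfkfb3 was lost without transplant replicate 1 or 2 or embryo replicate 1 or 2 (adjusted p = 0.07 to 0.106), Aldoa without any transplant replicate or embryo replicate 1 or 3 (adjusted p = 0.0643 to 0.122) and Gapdh without transplant replicate 1 or 2 or embryo replicate 2 or 3 (adjusted p = 0.0514 to 0.0733). Eno2 was lost without transplant replicate 1 or 2 or embryo replicate 1 or 3 (adjusted p = 0.0688 to 0.106), and Slc16a1 without transplant replicate 1 or 2 or embryo replicate 1 or 2 (adjusted p = 0.0503 to 0.0685). Median-ratio scaling gave 6 higher and 13 lower, with medians of -0.40 and 0.00, and 51.3% of all calls were higher on that scale, against 35.0% as deposited. Without embryo replicate 2 the counts were 5 higher and 17 lower. Proliferation markers summed to 10.9 to 15.9 FPKM in transplant and 303 to 397 FPKM in embryo cells, and erythroid markers to 0.486 to 0.811 and 160 to 1920 FPKM. Fibroblast markers summed to 5259 to 8201 FPKM in transplant and 2314 to 3363 FPKM in embryo cells, and fibre markers to 120 to 141 and 16.3 to 41.8 FPKM. In the same order, endothelial markers summed to 5.05 to 7.33 and 17.4 to 33.7 FPKM. Epithelial and endodermal markers summed to 0.0963 to 0.435 and 4.02 to 18.4 FPKM. Their part was not tested.

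**Figure D5:**
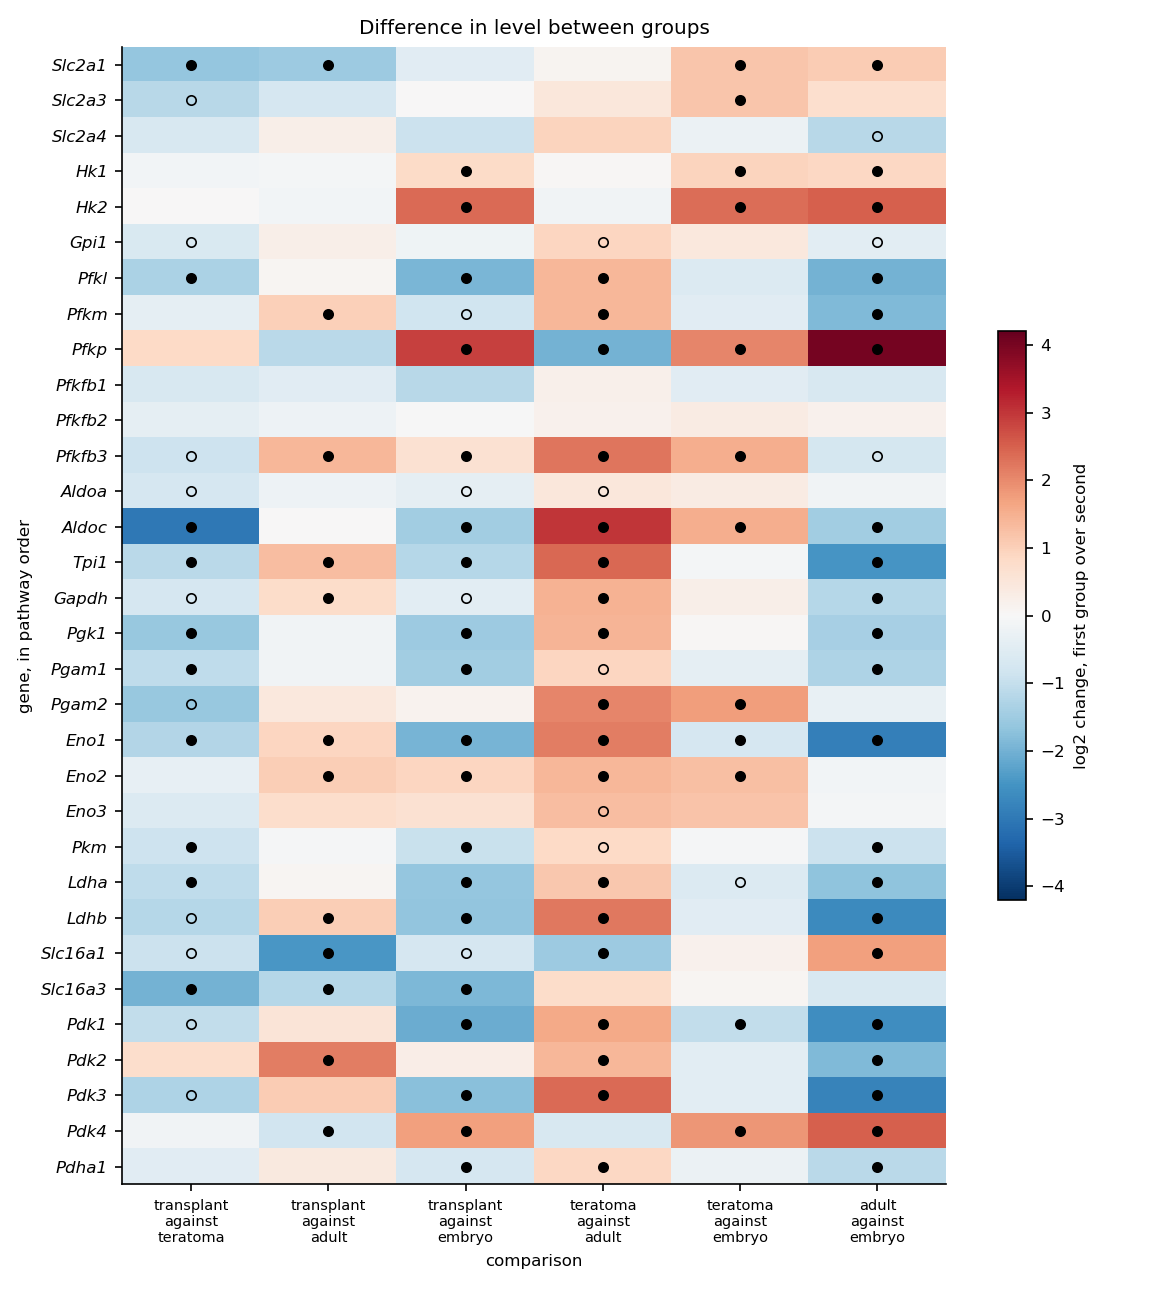
Fitted log2 change of each member (rows, pathway order) in the 6 comparisons (columns), first group over second. Filled circles are calls at an adjusted p under 0.05 that also hold with median-ratio scaling and open circles are calls on the deposited scale only; Aldoc is listed at 0 in transplant and adult libraries, so its colours there are fitted values and no measured fold.

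Genes next to glycolysis were counted from lists. Txnip, which curbs glucose uptake and rises with glucose inside the cell, had 75.1, 57.3 and 78.0 FPKM in transplant, 17.6, 27.9 and 25.6 in teratoma, 15.6, 15.6 and 17.4 in adult and 31.2, 40.9 and 43.6 in embryo cells. Transplant libraries were above all others, and in transplant cells Txnip rose against teratoma cells, by 1.54 ± 0.20 (adjusted p = 0.000337), and against adult cells, by 2.04 ± 0.20 (adjusted p = 1.64e-05). It was the 1 higher call, beside 0 lower, among the 12 tested genes of other isozymes, transporters and regulators in transplant against teratoma cells. Against adult cells the same list had 6 higher and 0 lower in transplant cells, against 27.3% and 16.9% of all tested genes, among them Bpgm, which makes 2,3-bisphosphoglycerate, with 21.4, 28.2 and 12.6 FPKM in transplant and 0.967, 3.67 and 0.263 FPKM in adult cells (3.20 ± 0.53, adjusted p = 0.000542). Teratoma cells shared the transplant level of Bpgm, with 17.5, 19.7 and 20.8 FPKM, and embryo cells had 3.99, 1.42 and 9.49 FPKM. Mature red cells depend on Bpgm. The erythroid markers summed to 0.486 to 0.811 FPKM in transplant cells and 2.03 to 5.88 FPKM in adult cells. Their part in Bpgm was not tested.

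Glycogen genes changed their isozyme in adult against embryo cells, with 2 of 16 higher and 7 lower, close to the 15.8% and 36.9% of all tested genes. Pygm, the muscle phosphorylase, rose by 2.34 ± 0.40 (adjusted p = 0.000413), to 10.4, 8.48 and 8.39 FPKM in adult cells against 0.82, 0 and 3.31 in embryo cells. Pygb, the brain phosphorylase, fell by 2.92 ± 0.22 (adjusted p = 6.77e-07), to 1.26, 1.01 and 1.43 FPKM in adult cells against 17.6, 12 and 18.8 in embryo cells. Rows listed as phosphoglucomutases moved in opposite directions. Pgm2 fell by 2.95 ± 0.28 (adjusted p = 4.76e-06), and Pgm1 averaged 34.7 ± 3.05 FPKM in adult and 8.79 ± 1.93 FPKM in embryo cells. Both are deposited symbols, and some deposited symbols are older names, such as Brp44l for Mpc1. Which current gene the Pgm1 and Pgm2 rows stand for was not checked. Of the 8 pentose phosphate genes, 1 was higher and 5 lower in adult against embryo cells, beside the same 15.8% and 36.9% of all tested genes, and Tkt, the transketolase, fell by 2.28 ± 0.20 (adjusted p = 1.84e-06). Tkt had 7.98, 6.27 and 5.27 FPKM in transplant, 12.6, 12.9 and 12.2 in teratoma, 5.33, 5.48 and 5.47 in adult and 27.3, 25.7 and 39.0 in embryo cells.

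Among the 9 partners of pyruvate import and pyruvate dehydrogenase, Pdp1, the phosphatase that reverses the kinases, was also highest in adult cells. It had 3.85, 6.73 and 7.83 FPKM in transplant, 14.8, 10.5 and 9.18 in teratoma, 16.7, 17.8 and 18.2 in adult and 2.48, 4.92 and 4.27 in embryo cells, and in adult against embryo cells it rose by 1.96 ± 0.27 (adjusted p = 8.62e-05). That list had 1 higher and 3 lower of 9 in adult against embryo cells, and 0 higher and 1 lower in transplant against teratoma cells, where 15.8% and 36.9%, and 4.18% and 18.5%, of all tested genes were called. The list's counts are near or below those shares. Of the gluconeogenesis and glycerol phosphate list, 4 of 8 genes were tested. The mitochondrial Pck2 rose in transplant against adult cells by 2.18 ± 0.27 (adjusted p = 7.78e-05). It averaged 8.45 ± 0.966, 7.87 ± 0.542, 1.11 ± 0.455 and 4.15 ± 2.05 FPKM in transplant, teratoma, adult and embryo cells.

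The 20 hypoxia-response genes outside glycolysis moved in both directions. In adult against embryo cells 5 were higher and 6 lower, against 15.8% and 36.9% of all tested genes, and the higher ones were led by Ndrg1, a stress-response gene that rose by 3.71 ± 0.25 (adjusted p = 2.71e-07) to 259, 264 and 319 FPKM in adult against 17.1, 30.7 and 16.1 FPKM in embryo cells. Vegfa, the vessel growth factor, had 23.6, 28.2 and 22.4 FPKM in transplant, 78.4, 78.0 and 65.5 in teratoma, 102, 89.8 and 107 in adult and 32.8, 28.4 and 41.2 in embryo cells. On the deposited scale its levels ran in the order adult, teratoma, embryo and transplant, with no overlap between groups. Bnip3, a mitophagy gene, went the other way in adult cells, with a fall of 1.98 ± 0.30 against embryo cells (adjusted p = 0.000143). In teratoma against embryo cells the list had 6 higher and 0 lower, in teratoma against adult cells 9 and 3, in transplant against teratoma cells 0 and 7, in transplant against adult cells 6 and 7 and in transplant against embryo cells 2 and 6. Of all tested genes, the shares called higher and lower were 15.5% and 10.6%, 36.4% and 8.94%, 4.18% and 18.5%, 27.3% and 16.9%, and 14.9% and 27.6% in those 5 comparisons, in that order. In transplant against teratoma cells Vegfa fell by 1.54 ± 0.16 (adjusted p = 9.94e-05), Egln3, a prolyl hydroxylase that marks the factor for decay, by 1.98 ± 0.32 (adjusted p = 0.00121), and Bnip3 by 1.46 ± 0.30 (adjusted p = 0.00463). No test compared these lists with the members.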

How the data were processed

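The data are 12 RNA-seq libraries, 3 in each of 4 groups set by the labels. Per the labels' protocols, an enzyme digest (dispase with collagenase II) preceded the sort, RNA was purified on columns with DNase I, and libraries were made with a SMARTer stranded total RNA kit (Pico version). The deposited table holds FPKM values that the authors computed. Tools listed in the submitters' processing notes, without roles, are Cufflinks 2.2.1.0, TopHat 0.7, Partek and CASAVA 1.8.2, with mm10 as the build. No source used here gives the annotation or read counts, so no interval for counting error could be formed. Of 23746 entries, 462 repeated a symbol, and summing repeats left 23284.

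The 12699 genes that reached 1 FPKM in 3 or more libraries were tested with limma 3.58.1 in R 4.3.3 on log2(FPKM + 1), which understates the change of low genes. All 4 groups entered 1 fit, and Benjamini-Hochberg adjustment ran over the whole set of tested genes. Isoform shares were tested by exact permutation over 369600 assignments of libraries to groups, where the smallest p is 6.49e-05. The model was tested on simulated data. Named in each comparison are up to 6 called members with the largest change and a mean of at least 5 FPKM in the higher group, the isoforms Pgam2, Eno3, Pfkm, Pgam1, Eno1, Pfkl and Pfkp, and up to 3 called genes per pathway list. Other called members were chosen after their values were seen. Members and lists were chosen with earlier results of these data known. Alternatives were another pseudocount, other filters, median-ratio and quantile scaling, small RNA genes left out, fits of only the groups compared, library weights, a replicate block and each library left out. Gene positions are from GENCODE M21 (mm10).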

Additional observations from a re-analysis of the deposited data

How the results depend on the processing

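For 131 of the 192 changes of a member in a comparison, those that were called or belong to the named isoforms, 2060 alternative values were computed. Of these, 1862 kept direction and side of the threshold, 175 lost the call, 5 gained one and 18 turned sign. In adult against embryo cells Pgam2 was 0.12 with quantile normalization and -0.76 to 0.09 with 1 library left out. Eno3 there was 0.28 with median-ratio scaling, 0.54 with quantile normalization, 0.02 with small RNA genes left out and -0.38 to 0.12 with 1 library left out, and Gpi1 was 0.09 with median-ratio scaling. Aldoa in teratoma against adult cells was -0.04 with median-ratio scaling. In transplant against adult cells Pfkl was -0.10 with median-ratio scaling, -0.26 with quantile normalization and -0.01 to 0.23 with 1 library left out, and Pgam1 was -0.28 to 0.03. Pgam2 in transplant against embryo cells was -0.25 with library weights and -0.31 to 0.54 with 1 library left out. The cause was not tested.

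Member counts moved as follows. The 3 lower in teratoma against embryo cells became 1 in a fit of only the 2 groups and 0 to 3 with 1 library left out. The 2 lower in teratoma against adult cells became 1 with a pseudocount of 0.1, 1 with no filter, 4 with median-ratio scaling and 1 to 2 with 1 library left out. In transplant against teratoma cells the 0 higher became 1 in a fit of only the 2 groups and 0 to 1 with 1 library left out, and the 20 lower became 10 with median-ratio scaling. Over all genes, median-ratio scaling took adult against embryo cells to 3278 higher, against 2007, teratoma against adult cells to 2923 higher and 2590 lower, against 4628 and 1135, and transplant against teratoma cells to 923 higher and 1202 lower, against 531 and 2343. Quantile normalization gave 3038 higher and 3125 lower, 2285 and 2411, and 1096 and 1309 in those 3 comparisons. Testing only the 7068 genes with a mean of at least 5 FPKM gave 2782 lower in adult against embryo, 1268 higher and 816 lower in teratoma against embryo, 2746 higher in teratoma against adult and 2204 higher in transplant against adult cells (3462 over all). Leaving out small RNA genes gave 1472 lower in transplant against teratoma cells. With 1 library left out, the lower calls in teratoma against embryo cells ran from 791 (without teratoma replicate 2) to 1228, against 1343, and in transplant against teratoma cells from 1199 (without teratoma replicate 1) to 1944, with 325 to 419 higher.

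Of the isoform shares, Pgam2 had an adjusted exact permutation p of 0.14 as a log2 ratio and 0.0364 to 0.116 with 1 library left out, and Eno3 had 0.0401 as a log2 ratio. With 1 library left out Ldhb ran from 0.0269 to 0.154, Slc2a4 from 0.0167 to 0.146 and Slc16a3 from 0.0189 to 0.0736. Deviations from the group mean had correlations of -0.0951 to 0.0956 in the 18 same-numbered pairs of libraries from different groups. The 36 different-numbered pairs had -0.101 to 0.143. The labels do not say that numbers pair libraries, and such correlations cannot exclude a shared sort or preparation. With a replicate block the adjusted exact permutation p was 0.0273 for Eno3, 0.0521 for Hk2, 0.0833 for Ldhb, 0.067 for Slc2a4 and 0.0833 for Slc16a3, and the members called lower in transplant against teratoma cells were 18.

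Absolute depth is unknown, so precision at low FPKM, as for Pgam2, Slc2a4 and Pfkfb1, cannot be stated. With 3 libraries a group, no pair of groups can give an exact p below 0.1.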
